A study of Rattus norvegicus with 16 samples.

Results

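The guidance ligands and receptors of rat hepatoma H35 cells were described on 16 one-color Agilent arrays, as the 57 probes, for 46 genes, whose gene names denote semaphorins of classes 3 to 7, plexins, neuropilins, ephrins or Eph receptors. The array holds 30367 probes under 26269 names, control spots left out. The members were chosen by name and not by their values. The study had, however, already named Sema3c among genes that went down on Pdrg1 silencing on these same arrays. Its values here thus describe those data again and are no independent test. H35 is an established hepatoma line, and all 4 groups had been transfected with a plasmid that carries G418 resistance. CN-10 is a single stable clone with a negative control sequence, 4-18 a single stable clone with the hairpin shRNA4 against Pdrg1, and 3-44 a single stable clone with the hairpin shRNA3 against Pdrg1. The 3 clones had been selected with 4 mg/ml G418. The group shRNA3T is a pool of cells transfected transiently with shRNA3 and enriched with 1.8 mg/ml G418, so that its cells are no single clone. There were 4 biological replicates in each group, and a difference between a clone and CN-10 cannot be told apart from a difference between 2 clones. The pool differs from CN-10 and from 3-44 in being no clone, in its G418 dose and in a shorter selection. These cannot be told apart either. The comparisons ask how these genes differ between cells silenced for Pdrg1, an oncogene that binds methionine adenosyltransferases, and the control clone.

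Semaphorins and ephrins were first known as signals that steer growing axons, and both systems also act on cell adhesion, migration and vessel growth in other tissues, epithelial tumours among them. Class 3 semaphorins are secreted and mostly act through a neuropilin, which binds them, and a plexin, which carries the signal into the cell, whereas semaphorins of classes 4 to 7 are held at the membrane and mostly bind plexins directly. Ephrin-A ligands are anchored by lipid and ephrin-B ligands cross the membrane, their Eph receptors are tyrosine kinases, and signals can run into both of the touching cells.

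Several results below turn on single 60-base probes, so the probes that measured Sema3c, Plxna3, Efna2 and Efna4 are shown as they stand in the scanner files, 5′ to 3′. Capitals mark the longest run of bases that the probes of the related ligands Efna2 and Efna4 share, 12 bases.
Sema3c, A_64_P050199: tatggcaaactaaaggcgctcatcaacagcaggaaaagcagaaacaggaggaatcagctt
Plxna3, A_43_P21050: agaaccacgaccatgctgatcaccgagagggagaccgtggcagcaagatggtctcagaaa
Efna2, A_44_P414527: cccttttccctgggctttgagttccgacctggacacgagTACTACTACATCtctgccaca
Efna4, A_64_P120841: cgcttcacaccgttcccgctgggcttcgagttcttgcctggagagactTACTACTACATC
Over all 57 member probes the longest run shared with a probe of another member gene was 7 to 13 bases (median 8), so no probe of a member held a long stretch of another member's probe. The Sema3c probe maps in the files to chr4:13742169-13742228 of the rn4 build, minus strand, and the Efna2 probe to chr7:11029113-11030495, minus strand, a span longer than the probe itself.

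The arrays were read in log2 units of normalized intensity, and a gene by its brightest probe. Detected here means that all 4 arrays of some group had that probe well above background. The share of spots well above background ran from 53.1% (4-18 replicate 2) to 74.3%, and the 75th percentile of the signal was lower in 4-18 (1613 to 1878) than in the other groups (2290 to 3647). Arrays of a group correlated with r of 0.987 to 0.998 across probes and arrays of different groups with 0.973 to 0.993. The 4 groups lie on 4 separate slides, and an effect of slide cannot be told apart from one of group. Of 13 hepatocyte or hepatoma markers, each array of CN-10, 3-44 and shRNA3T had all well above background, and 10 were so throughout 4-18. Neural markers, whose cells are rich in guidance genes, had a summed intensity of 484 to 600 in all groups, and of the 6 markers 1 in CN-10 and 0 in each silenced group were well above background on every array. The 6 leukocyte markers summed to 2407 to 3434 in 3-44 against 1358 to 1523 in CN-10, a rise carried by Cd14 (mean log2 8.84 in CN-10 and 10.88 in 3-44), since the means of the other 5 were slightly lower in 3-44. The sum also lay above CN-10 in shRNA3T (1615 to 1887) and overlapped it in 4-18 (1393 to 1815), with Cd14 means of 9.82 and 9.65. Ptprc, the defining marker of leukocytes, was above background on 0 arrays, and the part of these markers in the results was not tested.

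The silenced gene was lower on average in all 3 silenced groups but did not pass the limma test across all probes in the main fit. Pdrg1 (probe A_43_P11144, rn4 chr3:143353382-143353441) read 13.41, 13.88, 13.51 and 13.77 in CN-10. It read 11.57, 13.33, 13.34 and 13.25 in 4-18, 11.89, 12.86, 12.90 and 12.95 in 3-44, and 12.39, 12.90, 12.97 and 12.90 in shRNA3T. Every array of a silenced group thus lay below every CN-10 array, and replicate 1 was by far the lowest in each silenced group. The log2 fold changes were −0.77, −0.99 and −0.85 (standard error 0.34) with limma adjusted p of 0.129, 0.105 and 0.143. Two-sided exact permutation of the arrays gave p = 0.0286 in each comparison, and the limma fit without 4-18 replicate 1 passed the test for 3-44 and the pool (adjusted p = 0.00860 and 0.0149). For 4-18 no fit that left out a single array passed (lowest adjusted p = 0.0916), and the log2 fold change ran from −0.92 to −0.33. Without replicate 1 of every group, an alternative added after the data were seen, the 3 log2 fold changes were −0.41 (adjusted p = 0.00647), −0.82 (0.000306) and −0.79 (0.000212). Background and scaling changed the call too. On the 75th percentile scale of the processed signal, where both differ, Pdrg1 passed in 4-18 (−0.82, adjusted p = 0.0482) and the pool (−0.98, adjusted p = 0.0406), and in the authors' unscaled table it passed in 4-18 (−1.52, adjusted p = 0.0206). With the replicate number as a block, Pdrg1 passed in 4-18, 3-44 and the pool at the fold changes of the main fit (limma adjusted p = 0.0176, 0.0108 and 0.0183).

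In the main fit, Sema3c was the member that passed the limma test against CN-10 in the same direction in all 3 silenced groups. This secreted class 3 semaphorin, known for its part in the growth of the heart's outflow vessels and in tumour cell migration, fell 3.36-fold in 4-18, 1.92-fold in 3-44 and 2.08-fold in shRNA3T. Its brightest probe, A_42_P619926 (rn4 chr4:13740618-13740677, 10 spots on each array), read 9.98, 9.94, 10.20 and 10.27 in CN-10. The same probe read 8.04, 8.33, 8.60 and 8.42 in 4-18, 8.96, 9.32, 9.11 and 9.25 in 3-44, and 8.79, 9.003, 9.16 and 9.22 in shRNA3T. All 12 silenced arrays lay below all 4 CN-10 arrays, and the 4-18 arrays also lay below those of the other silenced groups. The log2 fold changes were −1.75 for 4-18 (95% interval −2.03 to −1.47, limma adjusted p = 1.82e-07), −0.94 for 3-44 (−1.22 to −0.66, adjusted p = 0.000323) and −1.06 for the pool (−1.33 to −0.78, adjusted p = 6.82e-05). For each of the 3 the two-sided exact permutation p was 0.0286, the smallest that 4 arrays against 4 allow. In the authors' unscaled table the falls in 3-44 and the pool kept their direction but missed the limma test (adjusted p = 0.223 and 0.162).

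The second Sema3c probe, whose sequence is given above, read 9.60, 9.28, 9.89 and 9.81 in CN-10. It read 7.59, 7.27, 7.96 and 8.36 in 4-18, 9.13, 8.65, 8.17 and 8.59 in 3-44, and 8.47, 8.46, 8.50 and 8.34 in shRNA3T. On this probe too no silenced array reached the lowest CN-10 array, although 4-18 replicate 4 overlapped the range of 3-44 and shRNA3T. The log2 fold changes were −1.85, −1.01 and −1.20 (limma adjusted p = 1.94e-05, 0.0100 and 0.00188). A probe was called when it changed at least 2-fold with an adjusted p under 0.05, and this was the 1 member probe called in the same direction against CN-10 in all 3 silenced groups, where 94 of 30367 probes (0.31%) were. Its call in 3-44 lies close to the 2-fold limit, since leaving out single arrays gave −1.17 to −0.85. In the authors' unscaled table the probe missed the limma test in 3-44 (−1.16, adjusted p = 0.272) and shRNA3T (−1.20, adjusted p = 0.161). By brightest probe and the adjusted p alone, Sema3c was the 1 member of 46 that passed in the same direction in all 3, where 638 of 26269 genes (2.43%) did. This count rests on single arrays, since Efna1 rose past the test in all 3 without 4-18 replicate 2, and Epha4 did so without 3-44 replicate 4. The 3 comparisons share the CN-10 arrays.

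Sema3c was lower in 4-18 than in the 2 groups with the other hairpin. The difference was −0.81 against 3-44 (95% interval −1.09 to −0.53, limma adjusted p = 0.000338) and −0.69 against shRNA3T (−0.97 to −0.42, adjusted p = 0.00131) on the first probe. On the second probe these were −0.84 (adjusted p = 0.0120) and −0.65 (adjusted p = 0.0505). The difference from 3-44 missed the test in the authors' unscaled table on both probes, at −1.02 (adjusted p = 0.0535) and −0.94 (adjusted p = 0.139), and on the second probe in 4 more settings (−0.84 to −0.50), namely array weights, cyclic loess, the 8 arrays alone and the fit without replicate 1 of every group. Between the clone and the pool that carry the same hairpin the first probe differed by −0.12, shRNA3T minus 3-44 (−0.39 to 0.16, adjusted p = 0.675), a difference within the spread of the arrays. The 2-fold call in shRNA3T rests close to its limit, since the log2 fold change was −0.97 without CN-10 replicate 4. The summed intensity of 8 fibroblast or stellate cell markers was 1060 to 1151 in 4-18, below the 1217 to 1336 of CN-10 and the 1170 to 1329 of shRNA3T and overlapping the 1106 to 1199 of 3-44. Of these markers Des, the desmin gene, had a mean log2 level of 8.27 in CN-10 and of 7.09, 7.45 and 7.28 in 4-18, 3-44 and shRNA3T, while Dcn and Lrat were above background on 0 arrays. In the same order Col1a1 went the other way (8.01 in CN-10, then 8.25, 8.20 and 8.53). Col1a2 had 7.63, then 7.66, 7.38 and 7.63, and Acta2 had 7.60, then 7.14, 7.54 and 7.43. The part of such cells in the Sema3c result was not tested.

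**Figure D1:**
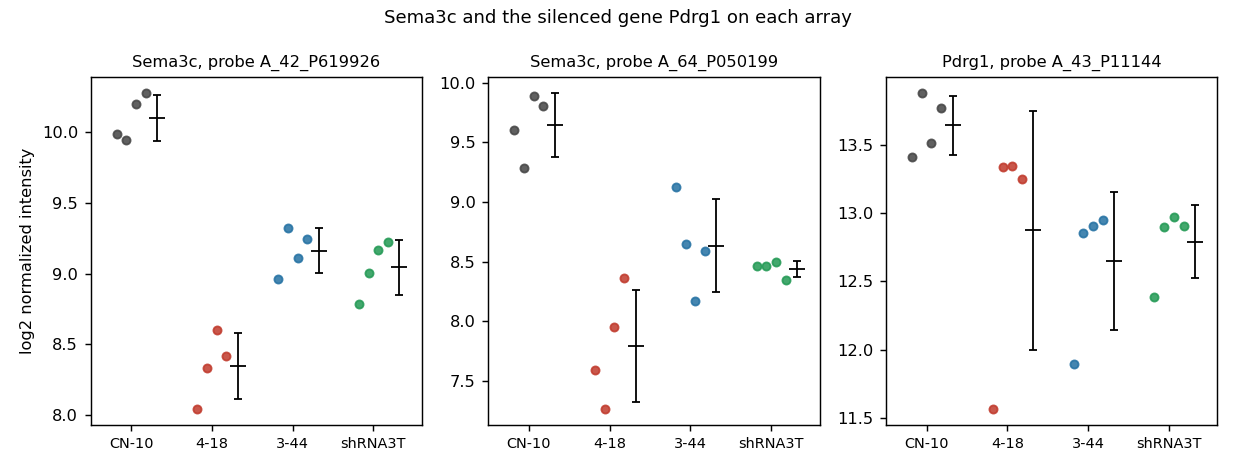
Log2 normalized intensity (vertical axes) of both Sema3c probes and of the Pdrg1 probe on each of the 16 arrays, by group, with each group's mean and SD (n = 4) as a black bar beside its points. All silenced arrays lie below all CN-10 arrays in each panel, 4-18 is lowest for Sema3c (mean 8.35 against 10.1 in CN-10 on the first probe), and replicate 1 of each silenced group is lowest for Pdrg1.

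Of the 46 genes, 26 were detected (56.5%), beside 16468 of 26269 genes (62.7%) on the array. The 15 genes above background on all 16 arrays were the ligands Sema3b, Sema3c, Sema3f, Sema4a, Sema4b, Sema4c, Sema4g, Sema6b, Sema6c, Efna1 and Efna4 and the receptors Nrp1, Plxnb2, Epha2 and Ephb6. Another 7 genes were above background on no array, namely Sema3a, Sema3d, Sema5a, Sema6d, Plxnb3, Ephb2 and Efna5. Detection was fullest among ephrin-B ligands (3 of 3) and A plexins (2 of 2), and 3 of 9 EphA receptors were detected. In 4-18 several dim members, such as Epha5, Epha8 and Sema4d, were above background on none of the 4 arrays, and its replicate 2, the array with the fewest detected spots, had 17 of the 57 member probes above background, where the arrays outside 4-18 had 29 to 41.

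**Figure D2:**
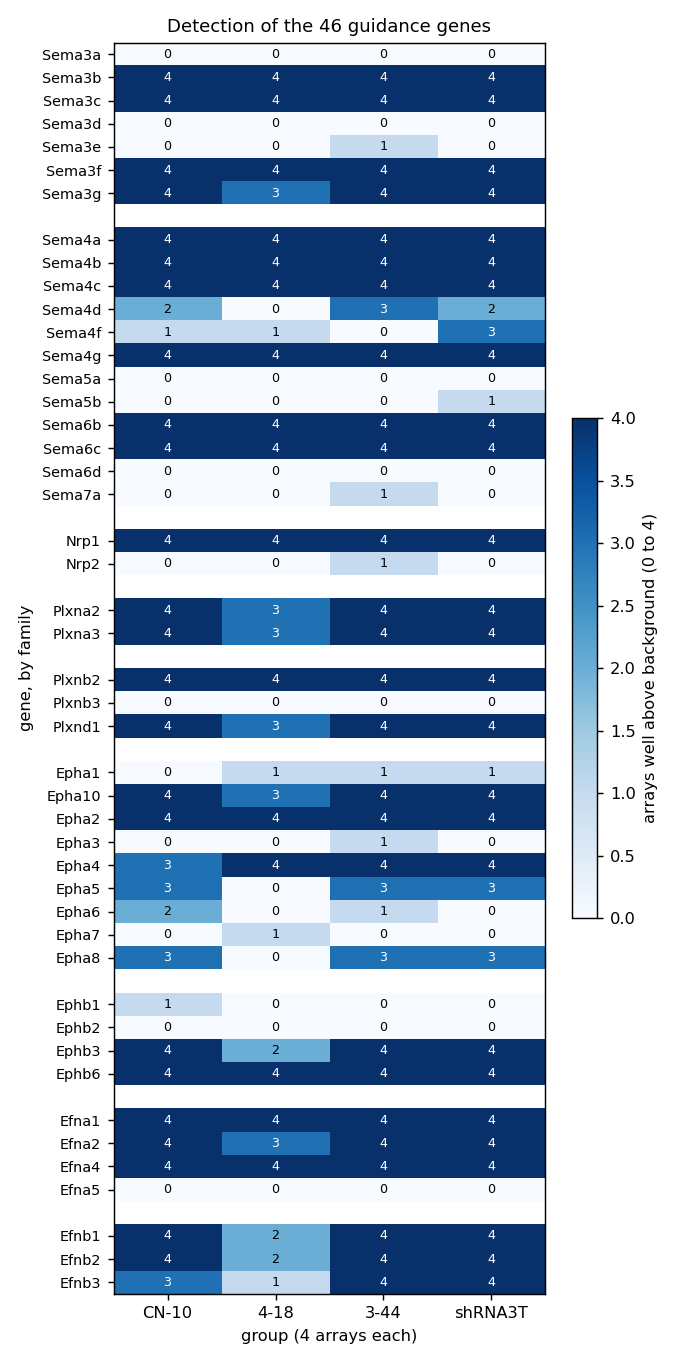
Number of arrays, of 4 in each group (columns), on which the brightest probe of each of the 46 genes (rows, by family) was well above background. The class 4 to 7 semaphorins split into 6 genes above background on all 16 arrays and 6 that were detected in no group.

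Against CN-10, 2 of the 46 genes were called in 4-18 (4.35%), where 6.15% of all genes were, and they were Epha4, which rose, and Sema3c, which fell. In 3-44 the 1 gene called was Efna2, which fell (2.17%, where 1.47% of all genes were called). In shRNA3T it was Sema3c (2.17%, where 2.39% of all genes were called). By the adjusted p alone 9 genes passed in 4-18 (19.6% against 24.1% of all genes), 3 in 3-44 (6.52% against 8.14%) and 6 in shRNA3T (13% against 12.2%). Among the 26 detected genes these were 8, 3 and 6 (30.8%, 11.5% and 23.1%), where 36.3%, 12.9% and 19.1% of all detected genes passed. The median log2 fold change over the 46 genes was 0.08, −0.03 and 0.01, beside 0.00, −0.01 and −0.01 over all genes tested. These counts and medians are close to those of the array as a whole.

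**Figure D3:**
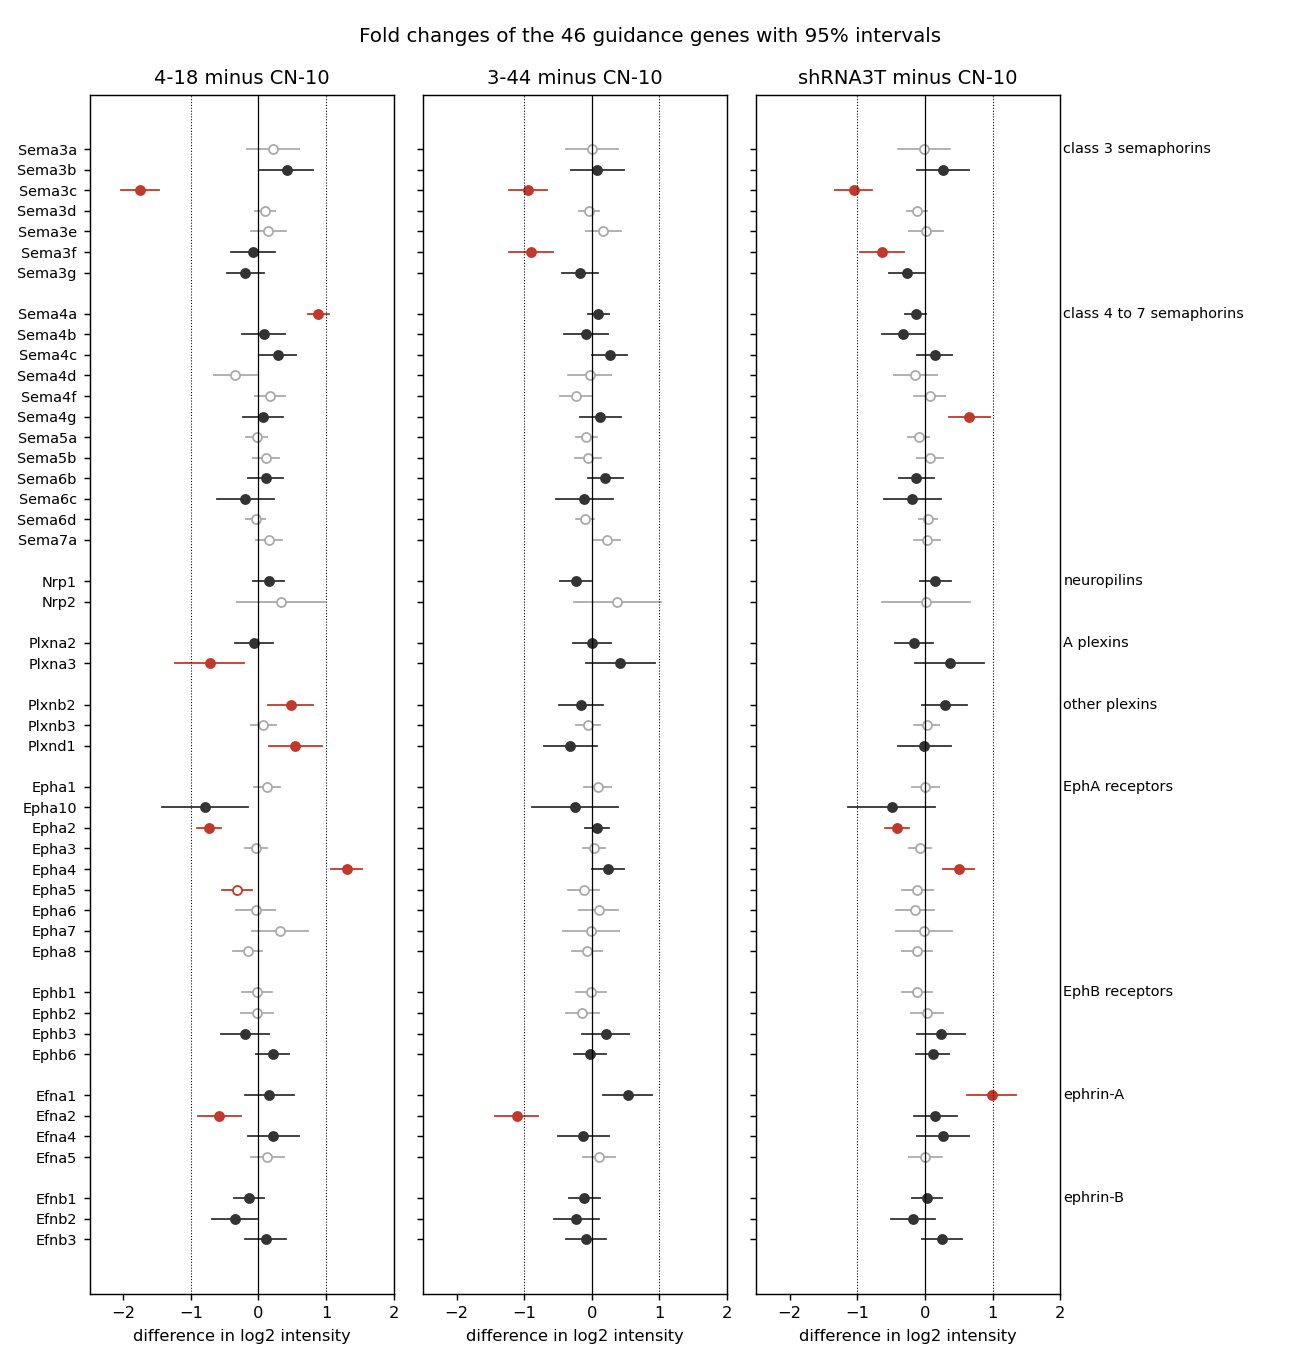
Difference in log2 intensity from CN-10 (horizontal axes, with 95% intervals from the limma fit) for the 46 genes by family in 4-18, 3-44 and shRNA3T, with dotted lines at 2-fold. Red marks an adjusted p under 0.05 and open symbols mark genes detected in no group, and Sema3c is the one gene in red in all 3 panels.

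Among the other class 3 semaphorins, Sema3f fell in both groups with the hairpin shRNA3. Sema3f, a ligand known to repel endothelial and tumour cells, was described after its values were seen. It read 12.45, 12.38, 11.89 and 12.27 in CN-10 and 12.51, 12.41, 12.02 and 11.74 in 4-18, and 11.19, 11.32, 11.42 and 11.46 in 3-44 and 11.58, 11.61, 11.59 and 11.69 in shRNA3T. The arrays of 3-44 and shRNA3T lay below all CN-10 arrays, and those of 4-18 overlapped them. Sema3f differed from CN-10 by −0.90 in 3-44 (limma adjusted p = 0.00173), −0.63 in shRNA3T (adjusted p = 0.0134) and −0.08 in 4-18 (95% interval −0.41 to 0.25, adjusted p = 0.780). The difference of 4-18 from the shRNA3 groups was itself past the test, with 0.82 against 3-44 (adjusted p = 0.00114) and 0.55 against shRNA3T (adjusted p = 0.0181), though the latter missed it without 4-18 replicate 1 (0.44) or 2 (0.47). In the authors' unscaled table Sema3f fell in 4-18 as well (−0.78, adjusted p = 0.0305), its difference from 3-44 was 0.26 (adjusted p = 0.444), and that from shRNA3T turned to −0.15 (adjusted p = 0.610), so the contrast between the hairpins depends on the scaling. The fall in shRNA3T itself missed the test in that table (−0.63, adjusted p = 0.298) and on the 75th percentile scale (−0.77, adjusted p = 0.0575, and −0.54, adjusted p = 0.177, once centred), and that in 3-44 on the centred scale (−0.83, adjusted p = 0.0619). Scaling to the 75th percentile also left both differences short of the test, at 0.70 (adjusted p = 0.0555) and 0.59 (adjusted p = 0.0800). Sema3b, whose probe on rn4 chromosome 8 starts at 112845710 near that of Sema3f at 112932112, had log2 fold changes of 0.42, 0.09 and 0.27 (adjusted p = 0.118, 0.868 and 0.451), and without 4-18 replicate 2 the first was 0.64 and past the test (adjusted p = 0.00224). Sema3g, which was also detected, had values of −0.19, −0.18 and −0.26, none past the test, and Sema3a, Sema3d and Sema3e were not detected in any group.

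Of the receptor chains known for Sema3c, Nrp1 and Plxna2 did not pass the test against CN-10 with quantile scaling. Nrp1, the neuropilin detected on all arrays, read 8.78, 8.74, 8.85 and 8.52 in CN-10, 8.93, 8.66, 8.996 and 8.91 in 4-18, 8.64, 8.57, 8.44 and 8.31 in 3-44, and 8.77, 8.72, 8.95 and 9.07 in shRNA3T. Its log2 fold changes of 0.15, −0.23 and 0.16 did not pass the test (limma adjusted p = 0.370, 0.247 and 0.457), with 95% intervals that together span −0.46 to 0.38. On the centred 75th percentile scale Nrp1 did pass in shRNA3T (0.55, adjusted p = 0.0119). Nrp1 was higher in 4-18 and in shRNA3T than in 3-44, by 0.38 (adjusted p = 0.0179) and 0.39 (adjusted p = 0.0299), and the first missed the test without 3-44 replicate 4 or 4-18 replicate 3 (0.32 and 0.34), the second without 3-44 replicate 3 or 4 or shRNA3T replicate 3 or 4 (0.33 to 0.37). Both also missed it in the authors' unscaled table, at 0.08 (adjusted p = 0.840) and 0.53 (adjusted p = 0.651), and the first on the centred 75th percentile scale (0.13, adjusted p = 0.494). Nrp2, the other neuropilin, was above background on 1 of the 16 arrays, 3-44 replicate 4, where it read 7.77 against 6.09 to 7.30 on the others. Plxna2, an A plexin that pairs with neuropilins, had log2 fold changes of −0.07, 0.01 and −0.17 (adjusted p = 0.782, 0.991 and 0.539).

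Plxnd1, a plexin of vessels and of the heart, passed the test in 4-18 against CN-10, though not in every setting. The probe read 7.05, 7.45, 7.50 and 6.94 in CN-10 and 7.62, 7.23, 8.16 and 8.11 in 4-18, so that the ranges overlapped. The log2 fold change of 0.55 (95% interval 0.16 to 0.94) had a limma adjusted p of 0.0420 and missed the test in 10 of 16 fits that left out 1 array, with values of 0.42 to 0.73. Those were the fits without CN-10 replicate 1 or 4, 4-18 replicate 3 or 4, 3-44 replicate 2 or 3, or any shRNA3T array. It also missed the test with cyclic loess (0.28, adjusted p = 0.246) and in the unscaled table (0.38, adjusted p = 0.423). In 3-44 it was −0.31 (adjusted p = 0.392) and in shRNA3T −0.01 (adjusted p = 0.986). On the 75th percentile scale of the processed signal, background and scaling both differ from the main fit. There Plxnd1 fell past the test in 3-44 (−0.92, adjusted p = 0.0347, and −0.88, adjusted p = 0.0448, once centred). The rise in 4-18 still passed there, and its largest value over all settings was 0.91. Whether 3-44 differed from CN-10 thus depends on the background and scaling, which were not separated. The 4-18 clone was above 3-44 by 0.86 (adjusted p = 0.00308) and above shRNA3T by 0.56 (adjusted p = 0.0428), the latter missing the test in 8 of 16 such fits (0.43 to 0.74). The first was 1.82 (adjusted p = 0.000100) on the 75th percentile scale and missed the test in the unscaled table (0.86, adjusted p = 0.135).

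Plxna3, a receptor chain for class 3 semaphorins whose probe is shown above, was lower in 4-18 than in every other group. It read 7.86, 8.33, 8.03 and 8.82 in CN-10, 7.67, 7.05, 7.54 and 7.89 in 4-18, 8.13, 8.62, 8.90 and 9.09 in 3-44, and 8.39, 8.85, 8.44 and 8.85 in shRNA3T. The 4-18 arrays overlapped those of CN-10 and lay below all arrays of the shRNA3 groups. Against CN-10 the log2 fold change was −0.72 (95% interval −1.23 to −0.21, limma adjusted p = 0.0394), and it missed the test without CN-10 replicate 2 or 4, 4-18 replicate 1, 2 or 3, or 3-44 replicate 2, with values of −0.86 to −0.54 over the 16 fits. It also missed the test with cyclic loess (−0.54, adjusted p = 0.172), 75th percentile scaling (−0.74, 0.0720), array weights (−0.67, 0.0670), the 8 arrays alone (−0.72, 0.0743) and the unscaled table (−0.86, 0.205). Against 3-44 the difference was −1.14 (adjusted p = 0.00274) and against shRNA3T −1.09 (adjusted p = 0.00400), both called, though in the unscaled table they missed the test, at −1.14 (adjusted p = 0.0884) and −1.22 (adjusted p = 0.0576). In 3-44 and shRNA3T the values against CN-10 were 0.42 and 0.37 and did not pass.

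Plxnb2, a receptor for class 4 semaphorins, rose in 4-18 from 12.52, 12.32, 12.34 and 12.25 in CN-10 to 13.32, 12.59, 12.84 and 12.59. These ranges did not overlap, which held for 9 of the 46 genes in 4-18 against CN-10, where it held for 23.5% of all genes. The log2 fold change was 0.48 (limma adjusted p = 0.0357), but −0.27 (adjusted p = 0.389) in the authors' unscaled value table, and it missed the test without CN-10 replicate 2, 3 or 4 or 4-18 replicate 1 or 3, with values of 0.31 to 0.56 over the 16 fits. The log2 fold change also missed the test on the centred 75th percentile scale (0.24, adjusted p = 0.160), with cyclic loess (0.42, 0.0633) and with the 8 arrays alone (0.48, 0.0867). In 3-44 it was −0.16 (adjusted p = 0.650). In shRNA3T, whose arrays (12.90, 12.55, 12.56 and 12.60) did not overlap CN-10 either, it was 0.29 (adjusted p = 0.288), and it passed on the 75th percentile scale (0.43, adjusted p = 0.0311, and 0.66, adjusted p = 0.00207, once centred).

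Of the 12 genes of classes 4 to 7, Sema4a passed the test against CN-10 in 4-18 and Sema4g in shRNA3T. Sema4a, which is known as a signal between immune cells and in the retina, read 12.09, 12.33, 12.21 and 12.27 in CN-10 and 13.16, 13.00, 13.14 and 13.14 in 4-18. It read 12.40, 12.23, 12.34 and 12.34 in 3-44 and 12.19, 12.10, 12.03 and 12.03 in shRNA3T, so that the 4-18 arrays stood above all others. Against CN-10, Sema4a differed by 0.89 in 4-18 (95% interval 0.73 to 1.04, limma adjusted p = 4.11e-07), a rise of 1.85-fold that stays under the 2-fold limit. Against 3-44 the difference was 0.79 (adjusted p = 1.50e-06) and against shRNA3T 1.02 (adjusted p = 1.26e-07). All 3 missed the test in the authors' unscaled table, at 0.13 (adjusted p = 0.674), 0.17 (0.569) and 0.27 (0.348), and with the arrays scaled to their 75th percentile and centred on the median, at 0.51 (0.0624), 0.32 (0.250) and 0.39 (0.132).

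Sema4g, described after its values were seen, rose in shRNA3T. Its arrays read 11.55, 11.65, 11.92 and 11.78 in CN-10 and 12.47, 12.37, 12.35 and 12.35 in shRNA3T, without overlap, and 11.55 to 12.02 in 4-18 and 11.47 to 12.20 in 3-44, which overlapped CN-10. Sema4g differed from CN-10 by 0.66 in shRNA3T (limma adjusted p = 0.00598) and 0.07 and 0.13 in 4-18 and 3-44 (adjusted p = 0.798 and 0.703), the value in 4-18 passing on the 75th percentile scale (0.40, adjusted p = 0.0398). The pool was above 3-44, the clone with the same hairpin, by 0.53 (adjusted p = 0.0253), which missed the test without 3-44 replicate 3 or 4 or any shRNA3T array (0.40 to 0.54). The rise against CN-10 missed it in the unscaled table (0.69, adjusted p = 0.297). Of the remaining 10 genes of classes 4 to 7, none passed the test against CN-10 in any silenced group, and their log2 fold changes ran from −0.34 to 0.29.

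Epha4 was the Eph receptor that rose most in 4-18. It takes up both ephrin-A and some ephrin-B ligands and is best known in the nervous system. Its brightest probe, A_42_P597215 (10 spots), read 6.71, 6.63, 6.63 and 6.57 in CN-10, 7.95, 7.80, 7.96 and 8.04 in 4-18, 7.06, 6.95, 7.01 and 6.46 in 3-44, and 7.16, 7.05, 7.11 and 7.21 in shRNA3T. The 4-18 arrays stood above all others, the shRNA3T arrays lay above those of CN-10, and 3-44 overlapped CN-10 through its replicate 4. Relative to CN-10 the difference was 1.30 in 4-18 (95% interval 1.07 to 1.54, limma adjusted p = 6.34e-07), 0.50 in shRNA3T (adjusted p = 0.00658) and 0.24 in 3-44 (adjusted p = 0.245, or 0.37 and 0.00631 without 3-44 replicate 4). The difference of 4-18 from 3-44 was 1.07 (adjusted p = 5.10e-06) and from shRNA3T 0.80 (adjusted p = 8.56e-05). The size of these differences depends on the background and scaling, since 75th percentile scaling of the processed signal gave 2.86 in 4-18 and 1.29 in shRNA3T, the latter then past the 2-fold limit, and in the unscaled table shRNA3T missed the test (0.44, adjusted p = 0.924).

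The second Epha4 probe was well above background on none of the CN-10 arrays and on 3 of 4 arrays of 4-18, so its level in CN-10 is a bound. The dim side of such a bound is the mean over arrays of either the probe's own value or the dimmest value still above background, whichever is higher. The bright side is the plain mean of its arrays, any not above background included. Epha4 was thus at least 2.24-fold higher in 4-18 (limma adjusted p = 1.51e-06). Both Epha4 probes are dim, with 4-18 means of 7.94 and 7.56 where the member probes above background on no array had group means of 6.13 to 6.51.

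Epha2, an Eph receptor common in epithelia and tumours, fell in 4-18 and in shRNA3T and did not pass in 3-44. It was described after its values were seen. The brightest probe (10 spots) read 11.82, 11.76, 11.68 and 11.78 in CN-10, 10.89, 11.26, 11.05 and 10.90 in 4-18, 11.88, 11.78, 11.81 and 11.89 in 3-44, and 11.50, 11.29, 11.34 and 11.28 in shRNA3T. Neither 4-18 nor shRNA3T overlapped CN-10, and 3-44 did. Epha2 differed from CN-10 by −0.74 in 4-18 (95% interval −0.91 to −0.56, limma adjusted p = 1.27e-05), −0.41 in shRNA3T (adjusted p = 0.00430) and 0.08 in 3-44 (−0.10 to 0.26, adjusted p = 0.674). The pool and the clone with the same hairpin differed by −0.49, shRNA3T minus 3-44 (adjusted p = 0.00140). This difference missed the test in the unscaled table (−0.34, adjusted p = 0.943) and on the centred 75th percentile scale (−0.32, adjusted p = 0.101). A second, dimmer probe gave −0.32, −0.15 and 0.08 in the same order, the first of them past the test (adjusted p = 0.0423). In the unscaled table the brightest probe gave −1.42 in 4-18, and its fall in shRNA3T missed the test (−0.38, adjusted p = 0.778), as it did on the centred 75th percentile scale (−0.20, adjusted p = 0.307).

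Of the remaining 11 Eph receptors, Epha5 alone passed the test against CN-10, in 4-18 (−0.32, limma adjusted p = 0.0398). It missed the test in 7 of 16 fits without 1 array (−0.39 to −0.25), and its value was 0.10 (adjusted p = 0.865) in the authors' unscaled table. Epha5 was above background on 3 arrays of CN-10 and on none of the 4 arrays of 4-18. Against the plain CN-10 mean this makes it at least 1.07-fold lower in 4-18. Epha10, detected outside 4-18 on all arrays, had the widest spread of the 13 Eph receptors in CN-10 (SD 0.76) and values of −0.79, −0.25 and −0.49 that did not pass (adjusted p = 0.0724, 0.734 and 0.378). Ephb6, an Eph receptor without kinase activity, was the EphB receptor with the smallest p, and its log2 fold changes of 0.21, −0.03 and 0.12 did not pass (adjusted p = 0.208, 0.935 and 0.651). None of the 4 EphB receptors passed the test against CN-10.

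Among the ephrins, Efna2 fell in the stable clone 3-44 and not in the pool with the same hairpin. Efna2, an ephrin-A ligand known from the visual system, read 8.63, 8.38, 8.55 and 8.59 in CN-10, 8.35, 7.59, 8.20 and 7.70 in 4-18, 7.57, 7.44, 7.54 and 7.15 in 3-44, and 8.80, 8.76, 8.59 and 8.61 in shRNA3T on the probe shown above. The arrays of both clones lay below those of CN-10, 3-44 lowest, and shRNA3T overlapped CN-10. The log2 fold change was −1.11 in 3-44 (95% interval −1.43 to −0.79, limma adjusted p = 0.000247), −0.58 in the clone 4-18 (adjusted p = 0.0104) and 0.15 in the pool (−0.17 to 0.47, adjusted p = 0.652). The pool was 2.40-fold above 3-44 (log2 1.26, adjusted p = 6.49e-05). The other Efna2 probe, at chr7:11028492-11028551 of rn4, gave 0.40, 0.11 and 0.20 for 4-18, 3-44 and shRNA3T, the first of them past the test (adjusted p = 0.00389). Thus the 2 probes disagree in sign in 4-18 and 3-44, and this second one was above background on 1 to 3 arrays of each group. With the mean of both probes the values were −0.09 in 4-18 (adjusted p = 0.541) and −0.50 in 3-44 (adjusted p = 0.00272), neither past the 2-fold limit. For the pool against 3-44 the second probe gave 0.09 (adjusted p = 0.617) and the mean of both 0.68 (adjusted p = 0.000183), also under 2-fold.

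Efna1, an ephrin-A ligand of Epha2 that is common in epithelia, rose in shRNA3T, and it too was described after its values were seen. It read 11.77, 11.89, 11.75 and 11.51 in CN-10, 11.995, 11.19, 12.16 and 12.21 in 4-18, 12.15, 12.31, 12.29 and 12.29 in 3-44, and 12.61, 12.76, 12.72 and 12.77 in shRNA3T. The arrays of 3-44 and shRNA3T lay above those of CN-10, and 4-18 replicate 2 was the lowest of all. The log2 fold change was 0.99 in shRNA3T (1.98-fold, limma adjusted p = 0.00116), 0.53 in 3-44 (95% interval 0.17 to 0.89, adjusted p = 0.0734) and 0.16 in 4-18 (adjusted p = 0.569). Without 4-18 replicate 2, the array with the fewest spots above background, both of the latter passed, at 0.53 in 3-44 (adjusted p = 0.00111) and 0.39 in 4-18 (adjusted p = 0.00600), and that in 3-44 also passed on the 75th percentile scale (0.46, adjusted p = 0.0469), while the rise in shRNA3T missed the test in the unscaled table (0.99, adjusted p = 0.0806). Efna4, whose probe lies on rn4 chromosome 2 at 181522689 near that of Efna1 at 181444621, had values of 0.22, −0.13 and 0.27 that did not pass. Among the ephrin-B ligands Efnb2, known in the growth of arteries, had the smallest p, and its values of −0.35, −0.23 and −0.18 did not pass (adjusted p = 0.115, 0.478 and 0.590), the first of them passing without CN-10 replicate 1 (−0.50) or 4-18 replicate 3 (−0.46) and on the centred 75th percentile scale (−1.03, adjusted p = 0.0206).

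**Figure D4:**
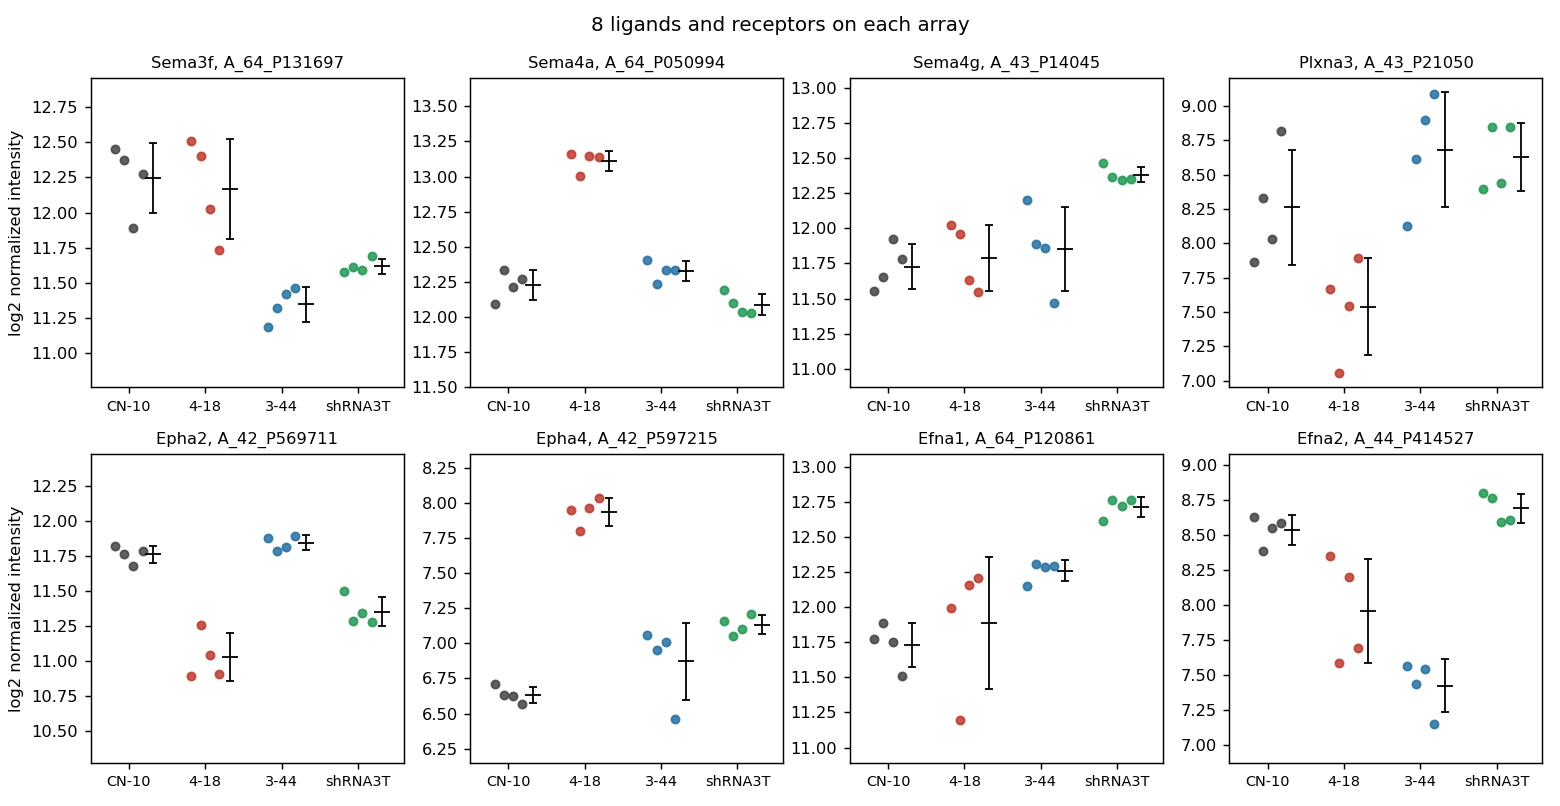
Log2 normalized intensity (vertical axes, each spanning at least 2.2 units) of 8 ligands and receptors on each array, by group, with the mean and SD (n = 4) as a black bar beside the points. Sema4a and Epha4 stand highest in 4-18, Plxna3 and Epha2 lowest there, Sema3f and Efna2 are lowest in 3-44, and Sema4g and Efna1 are highest in shRNA3T.

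Between the silenced groups, 2 of 46 genes were called in 4-18 against 3-44 (4.35%, where 4.98% of all genes were), namely Epha4 and Plxna3. In 4-18 against shRNA3T they were Plxna3 and Sema4a (4.35%, where 4.56% were), and in shRNA3T against 3-44 the 1 gene called was Efna2, by the brighter of its 2 disagreeing probes (2.17%, where 2.12% were). By the adjusted p alone 11, 11 and 5 genes passed (23.9%, 23.9% and 10.9%), where 22.5%, 20.5% and 10.9% of all genes did. Of these, Sema4f in 4-18 against 3-44 (limma adjusted p = 0.0124) was detected in no group. With 1 array of 4-18 and 0 of 3-44 above background, it gets no fold change here. Sema3d, also detected in no group, passed in 4-18 against shRNA3T with no array above background and gets no fold change either.

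Other genes of the guidance pathways came from a list of 77 partners, of which 72 are on the array and 49 were detected. Of the 72, the clone 4-18 had 3 called (2 of them up), the clone 3-44 had 1, which was up, and the pool had 3, all up. These are 4.17%, 1.39% and 4.17% of the list, where 6.15%, 1.47% and 2.39% of all genes were called. By the adjusted p alone 9 rose and 5 fell in 4-18, 5 rose and 5 fell in 3-44, and 8 rose and 4 fell in the pool. That is 19.4%, 13.9% and 16.7% of the list beside 24.1%, 8.14% and 12.2% of all genes. Srgap2, a GTPase-activating protein downstream of the slit receptors, was called in all 3, from 11.73, 11.98, 11.89 and 11.92 in CN-10 to 12.70 to 13.10 in 3-44, 12.92 to 13.00 in 4-18 and 13.12 to 13.29 in shRNA3T. No silenced array overlapped CN-10, and the log2 fold changes were 1.08, 1.06 and 1.31 in 4-18, 3-44 and shRNA3T (limma adjusted p = 2.98e-07, 1.67e-06 and 1.35e-07), while a second, dimmer probe gave 0.55, 0.23 and 0.27 with the first past the test (adjusted p = 0.0276). In the unscaled table the first probe missed the test in 4-18 (0.35, adjusted p = 0.351) and 3-44 (0.95, adjusted p = 0.0883).

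Itga1, an integrin chain for collagen that is also known to bind Sema7a, was called in 4-18 and shRNA3T. It read 7.57, 7.52, 7.55 and 7.46 in CN-10, 9.44 to 9.74 in 4-18, 8.15 to 8.45 in 3-44 and 9.03 to 9.30 in shRNA3T, 4 ranges without overlap. The log2 fold changes were 2.06, 0.72 and 1.63 (limma adjusted p = 4.52e-10, 0.000113 and 2.37e-08), and 4-18 exceeded 3-44 by 1.34 (adjusted p = 5.72e-08), while the clone 3-44 missed the test in the unscaled table (0.60, adjusted p = 0.432). The other genes called were Mmp14, a membrane protease, in 4-18 (−1.28, adjusted p = 7.09e-07) and Vegfc, a vessel growth factor that binds Nrp2, in shRNA3T (1.15, adjusted p = 0.0163), both named after their values were seen.

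Features of sequence and position, which the members' names did not fix, were also read. Sema3a, Sema3c, Sema3d and Sema3e lie together on rn4 chromosome 4, with probes starting between 13740618 and 18643741, and Sema3c was the 1 of these 4 genes that was detected. For 38 of the 46 genes RefSeq promoters of the GRCr8 build were at hand, and CG dinucleotides (the letters CG, which read the same on both strands) were counted in the 250 bases before the gene's start. The members held a median of 14, from 0 to 43, where all 33469 promoters held a median of 5. Sema3c and Sema6c held 0, which 7.83% of all promoters do, and Efna2 held 31, a count that 95.9% of all promoters do not exceed. These 2 genes, Sema3c and Efna2, are the members that fell past the 2-fold limit against CN-10, Efna2 only by the brighter of its 2 disagreeing probes. Their windows are shown 5′ to 3′ along the gene, at chr4:18699628-18699877 (minus strand) for Sema3c and chr7:10177720-10177969 (minus strand) for Efna2, with each CG in capitals. The counts are a description of these windows.
Sema3c: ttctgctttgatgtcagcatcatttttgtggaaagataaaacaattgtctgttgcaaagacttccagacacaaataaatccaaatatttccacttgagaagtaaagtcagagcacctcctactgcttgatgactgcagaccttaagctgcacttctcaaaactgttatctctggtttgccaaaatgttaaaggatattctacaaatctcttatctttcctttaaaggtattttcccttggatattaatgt
Efna2: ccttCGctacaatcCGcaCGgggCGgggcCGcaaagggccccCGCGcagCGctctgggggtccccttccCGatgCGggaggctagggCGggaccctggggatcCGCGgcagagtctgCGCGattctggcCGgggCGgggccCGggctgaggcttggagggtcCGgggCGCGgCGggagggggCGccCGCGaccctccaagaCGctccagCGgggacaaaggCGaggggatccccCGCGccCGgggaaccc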

How the data were processed

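Total RNA of 16 H35 cultures, 4 for each of CN-10, 4-18, 3-44 and shRNA3T, was read on one-color Agilent rat arrays. The scanner files deposited by the authors hold spot intensity, local background and flags from Feature Extraction 10.7.3.1, with probe coordinates in rn4. The study's methods name LIMMA for background correction and normalization without settings. For testing they give a moderated t-statistic, with limits of 2-fold and a false discovery rate under 0.05. The value table of the authors was deposited as whole-number score values, log2 values whose decimal points were lost. With the point put back it equalled normexp-corrected median signal with no scaling between arrays, and it served as an alternative. Its median was 8.90 for 4-18 replicate 4, against 7.23 to 7.49 for the other 4-18 arrays and 7.61 to 8.05 in the other groups. That array moves the 4-18 means and widens the shared spread in this alternative. Its part in the tests missed there was not tested.

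Intensities were background corrected with normexp (offset 50) over every spot, then control spots were dropped, and log2 values were quantile normalized in limma 3.58.1 (R 4.3.3). Outlier spots were set aside and spots averaged per probe. One mean per group was fitted over all 16 arrays with empirical Bayes, and Benjamini-Hochberg adjustment ran over all 30367 probes. A call needed 2-fold and an adjusted p under 0.05. A gene was read by its probe of highest mean, and a disagreeing second probe is given. The p-values measure the spread between 4 cultures of 1 clone or pool, and their number limits the precision. The scripts were tested on simulated data. Replicate numbers were checked for pairing by the correlation of same-numbered arrays' deviations from their group means. For 3-44 with shRNA3T all 4 were over 0.1 (0.10 to 0.32). The labels state no pairing, and the values given for this comparison in the Results come from the fit without it. With the replicate as a block 5 members again passed the test there, Plxnb2 now passing (0.45, limma adjusted p = 0.00468) and Sema4a missing it (−0.24, adjusted p = 0.0655).

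The genes and lists were chosen with earlier results of these data known. Genes are named by a rule: Sema3c, Pdrg1, the receptor chains Nrp1, Nrp2, Plxna2 and Plxnd1, detected members called against CN-10, the detected member with the smallest p against CN-10 in each family, and detected list genes called in the same direction in at least 2 of the 3 comparisons with CN-10. Other names were chosen after their values were seen. Alternatives were other background corrections and scalings, probe summaries, fits, and leaving out arrays. Marker lists for hepatocytes, fibroblasts, endothelium, leukocytes and neural cells were read, and the intensities of 5 endothelial markers summed to 734 to 1241, with overlap of each silenced group and CN-10.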

Additional observations from a re-analysis of the deposited data

Results flagged for a closer look

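Among 64 sets of 4 arrays, a gene in a group, 6 held an array far from the other 3, where chance gives about 5% of sets. Pdrg1 stood low in replicate 1 of all 3 silenced groups, at 11.57 in 4-18 (next array 13.25), 11.89 in 3-44 (next 12.86) and 12.39 in shRNA3T (next 12.90). Nrp2 stood high in 3-44 replicate 4, at 7.77 (next 6.39), the 1 array on which it was above background. Plxnb2 stood high in shRNA3T replicate 1, at 12.90 (next 12.60), and Sema4a stood low in 4-18 replicate 2, at 13.00 (next 13.14).

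Among the genes named by rule in the report, differences between silenced groups passed the test and the 2-fold limit for 5. Itga1 was higher in 4-18 than in 3-44 by 1.34 on the log2 scale (limma adjusted p = 5.72e-08), and Epha4 by 1.07 (adjusted p = 5.10e-06). Plxna3 differed between 4-18 and 3-44 by −1.14 (adjusted p = 0.00274) and between 4-18 and shRNA3T by −1.09 (adjusted p = 0.00400). Efna2 was higher in shRNA3T than in 3-44 by 1.26 (adjusted p = 6.49e-05) on its brighter probe and by 0.09 (adjusted p = 0.617) on the other, and Sema4a was higher in 4-18 than in shRNA3T by 1.02 (adjusted p = 1.26e-07).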

How the results depend on the processing

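Sema3c kept its direction against CN-10 in all 3 silenced groups under every alternative run, and its adjusted p was 0.05 or more in the authors' unscaled value table alone, for 3-44 (−1.06, adjusted p = 0.223) and shRNA3T (−1.05, adjusted p = 0.162). Leaving out single arrays moved it from −1.83 to −1.65 in 4-18, −0.99 to −0.87 in 3-44 and −1.12 to −0.97 in shRNA3T. Counts of members called are given here as 4-18, 3-44 and shRNA3T against CN-10, then 4-18 against 3-44, 4-18 against shRNA3T and shRNA3T against 3-44, where the main counts were 2, 1, 1, 2, 2 and 1. Shares over all genes were not computed under the alternatives, so the counts below cannot be set beside the array as a whole. A limit of 1.5-fold gave 5, 3, 4, 8 and 7 for the first 5, with 14 list genes in place of 4. Scaling to the 75th percentile gave 5 (2 higher), 2, 2, 7 (6 higher) and 9 (7 higher), with 9 list genes, 14 (7 higher) and 5 past the adjusted p in 4-18 and 3-44, and 0.48 for Sema4g in 4-18 against 3-44. Centring that scale on the median gave 6, 2, 3, 6 and 9, with 11 list genes, 9 (9 higher) past the adjusted p in shRNA3T against 3-44, and −0.067 for Itga1 in 4-18 against shRNA3T. The unscaled table gave 2 for 3-44, 0 for shRNA3T and 4 (0 higher) for 4-18 against shRNA3T, with 10 list genes. Past the adjusted p it gave 5 in 4-18, 0 in shRNA3T, 3 in 4-18 against 3-44, 6 in 4-18 against shRNA3T and 1 in shRNA3T against 3-44. In it Epha5 (0.10) and Plxnb2 (−0.27) in 4-18 and, for 4-18 against shRNA3T, Itga1 (−0.17) and Sema3f (−0.15) turned sign. Cyclic loess gave 0 for 4-18 against 3-44 and 0 against shRNA3T, keeping outlier spots 2 for 3-44, the mean of all probes 0 for 3-44 and 0 for shRNA3T against 3-44, and array weights 0 for shRNA3T. Past the adjusted p, array weights gave 5 in 3-44 and 11 in shRNA3T against 3-44, a trended prior 3 in the latter, and fits of 8 arrays 4 in 4-18, 7 in 4-18 against shRNA3T and 8 in shRNA3T against 3-44. Without replicate 1 of every group, added after the data were seen, 2 were called in shRNA3T. Without single arrays the counts called ran from 2 to 3, 1 to 2, 0 to 2, 1 to 2, 1 to 2 and 1 to 1. They were 0 in shRNA3T without CN-10 replicate 4, 2 there without CN-10 replicate 1 or 2, 2 in 3-44 without CN-10 replicate 3, 1 in 4-18 against 3-44 without 3-44 replicate 4, and 1 in 4-18 against shRNA3T without 4-18 replicate 2. Past the adjusted p they ran from 6 to 10, 3 to 4, 6 to 6, 9 to 13, 9 to 11 and 2 to 7, and list genes called from 3 to 5. The cause of these shifts was not tested. Of 4200 values for single genes, 3797 kept direction and side of the test, 184 lost the test, 89 gained it and 130 turned sign, 124 of these past the test in neither setting and 6 past it in at least 1. Of 55 single-gene differences past the test, 37 missed it in the unscaled table, 16 and 13 on the 75th percentile scale with and without centring, and 14 in fits of 8 arrays. The unscaled table holds 4-18 replicate 4 at a median of 8.90, far above the other arrays. The 75th percentile scale moved the median of all genes by 0.20 in 4-18 and −0.23 in shRNA3T, and 20 of the 46 genes were detected in no group, so small differences in them cannot be seen.

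With the replicate number as a block, Sema3c was −1.75 (adjusted p = 9.04e-08), −0.94 (6.72e-05) and −1.06 (1.72e-05), the counts called were unchanged, and 8, 3, 7, 12, 9 and 5 members passed the adjusted p in the order above. The block took the test from 5 of 55 single-gene differences, among them Plxnd1 (0.55, adjusted p = 0.0522) and Epha5 (−0.32, adjusted p = 0.0592) in 4-18 against CN-10. With it Pdrg1 passed in 4-18, 3-44 and shRNA3T at the same fold changes (adjusted p = 0.0176, 0.0108 and 0.0183), as did Plxnb2 in shRNA3T against CN-10 (0.29, adjusted p = 0.0417) and Ephb6 in 4-18 against 3-44 (0.24, adjusted p = 0.0471). Same-numbered arrays deviated together with r of −0.12 to 0.50 over 24 pairs, 15 of them over 0.1, and in 28 of 48 cases an array was closest to its own number in another group. This is a hint from the data that same-numbered cultures share something, which the labels do not state. All 4 pairs passed 0.1 for 3-44 with shRNA3T, and not for the other 5 comparisons.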

Other observations

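The genes around Sema3c on rn4 chromosome 4 were read after its values were seen. Within 2 Mb on either side 13 genes or unnamed transcripts have probes, Sema3c included, and 5 were detected. Cd36, a fatty acid receptor whose probe starts at 13525426, had log2 fold changes of −1.30, −0.84 and 0.19 for 4-18, 3-44 and the pool (limma adjusted p = 0.000347, 0.0239 and 0.704). The unnamed probe A_64_P130489, at 13292464, had −1.34, −0.33 and −0.999 in the same order (adjusted p = 3.58e-05, 0.325 and 0.00106). The other 2 detected neighbours did not pass the test in 4-18. The unnamed probe A_64_P145546, at 13993026, had 0.23, −0.08 and −0.57 (adjusted p = 0.213, 0.809 and 0.00622), and RGD1565355, at 13601631, had −0.30, −0.63 and 0.11 (adjusted p = 0.454, 0.172 and 0.889). None of the 4 detected neighbours passed the test in all 3 silenced groups, where 638 of 26269 genes (2.43%) did in the same direction. A shared change of the region was not tested.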
